A study of Caenorhabditis elegans with 6 samples.

Results

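The genes described here are 9 members of the Notch pathway of Caenorhabditis elegans, the receptors glp-1 and lin-12, the ligands apx-1 and lag-2, the DNA-binding factor lag-1 and the target genes ref-1, hlh-25, hlh-26 and hlh-27. They were taken as every probe set whose platform annotation held one of these symbols, shared probe sets included. This gave 9 of the 18217 annotated genes and 10 of the 22548 probe sets that are not controls. Whole embryos released by bleaching egg-bearing adults were profiled on 1-colour Affymetrix C. elegans arrays, with 3 biological replicates each of the wild-type strain N2 and of the mutant strain yap-1(ys38), and the purpose was to find genes through which the Hippo pathway maintains cell polarity. No treatment was given to either strain, and the labels state neither the stage of the embryos nor what the ys38 allele changes in yap-1, the worm counterpart of the Hippo-regulated coactivator YAP. The study set wild type array 2 aside as differing from the other wild-type replicates. The strains were therefore compared over wild-type arrays 1 and 3 and yap-1(ys38) arrays 1, 2 and 3, and values of wild-type array 2 are given beside them. Values are linear MAS5 intensities, brought by the authors to a common trimmed mean in every array. They can be compared between arrays for 1 probe set, not between probe sets.

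In Notch signalling a ligand on one cell binds a receptor on its neighbour, the receptor is cut by a metalloprotease and then by gamma-secretase, and its freed inner part enters the nucleus and joins LAG-1, the worm CSL protein, to switch on target genes. In early worm embryos glp-1 messenger RNA is supplied by the mother and translated in anterior blastomeres, where the ligand APX-1 on a posterior neighbour sets the fate of the cell it touches, and later Notch contacts, through GLP-1 and LIN-12, pattern the head, gut and nervous system. The REF-1 family, unusual basic helix-loop-helix proteins with paired domains that include REF-1, HLH-25, HLH-26 and HLH-27, are direct targets of these contacts and repress other fate genes. In the RefSeq table of assembly WBcel235, which lists all 9 members, glp-1 and lin-12 are neighbours with 6 protein-coding genes between them, as are lag-2 and apx-1 with 6 between. hlh-26 lies next to hlh-25, and 1 protein-coding gene separates hlh-25 from hlh-27. hlh-25 and hlh-27 share a single probe set, so their levels could not be told apart.

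No member differed between the strains past the test. Of the 10 probe sets, 9 had a mean log2 intensity above the low-intensity filter (a geometric mean of 53.5 over the 6 arrays) and entered a limma fit over 13529 probe sets. limma called 0 of the 9 at an adjusted p under 0.05, against 0% of all probe sets tested, and 0 of 9 at an unadjusted p under 0.05, against 1.04%. The log2 fold changes of the 9, yap-1(ys38) over wild type, ran from -0.48 to 0.33 with a median of 0.059, and 6 of the 9 were above 0, beside a median of 0.0062 and 51.2% above 0 over all probe sets tested. Their standard errors ran from 0.19 to 0.42. At 7 of the 9 the 95% confidence interval lay within a 2-fold difference either way, so a larger difference lay outside the interval there, and at 2 it reached beyond. Blocking on the replicate number raised limma's calls to 12 probe sets (0.0887%), 0 of them among the 9. Among markers, 14 of 15 maternal RNA regulators and 12 of 14 markers of differentiated embryos had a tested probe set of their own. So had 12 of 12 oocyte and germline markers, 5 of 6 yolk and adult soma markers and 6 of 14 sperm markers. Because 13529 of the 22548 probe sets passed the filter, these counts do not decide what material the arrays held. Whole embryos were measured in bulk, so fewer cells of a type and less RNA per cell cannot be told apart.

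**Figure D1:**
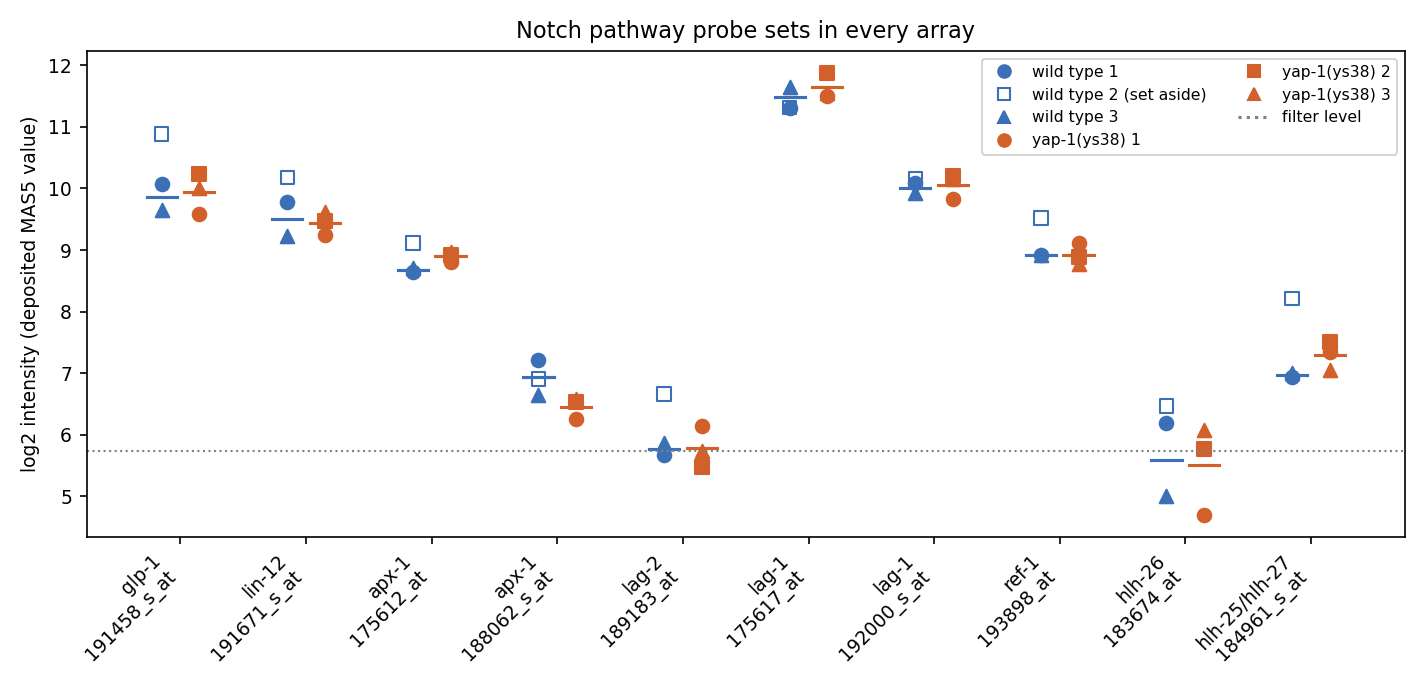
Log2 intensity of the 10 probe sets of the Notch members in each of the 6 arrays, wild type in blue and yap-1(ys38) in orange, with symbols for the replicate number. Bars are the means of wild-type arrays 1 and 3 and of the 3 yap-1(ys38) arrays, and the dotted line is the filter intensity of 53.5. Wild-type array 2 (open squares) is the highest of the 6 at 7 of the 10 probe sets.

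glp-1, the receptor that acts first in the embryo, read 1072 and 808 in wild-type arrays 1 and 3 and 769, 1203 and 1027 in yap-1(ys38) arrays 1, 2 and 3 (probe set 191458_s_at). The strains overlapped, with the lowest and the highest of these 5 values both in the mutant. Mean log2 intensity was 9.86 ± 0.29 (SD, n = 2) for wild type against 9.94 ± 0.33 (SD, n = 3) for the mutant, and the log2 fold change of 0.079 had a 95% confidence interval of -0.48 to 0.64 (limma, adjusted p = 0.9998, as for all 9 probe sets). Its sign was not stable, since it came to -0.066 with the replicate block and to -0.26 with wild-type array 2 included. The blocked value equals the one without yap-1(ys38) array 2, the only array of its number in that fit.

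lin-12, the second receptor, known for later cell contacts and for vulval and gonad fates, read 880.2 and 601 in wild type and 609, 712 and 783 in yap-1(ys38) (191671_s_at), so that the mutant values all lay between the wild-type ones. Its log2 fold change of -0.060 had a 95% confidence interval of -0.61 to 0.49.

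apx-1, the ligand of the early posterior blastomere, was measured by a pair of probe sets that disagreed. The brighter, 175612_at, read 400.4 and 417 in wild type and 448, 485 and 499 in yap-1(ys38), with all mutant values above both wild-type ones. The dimmer, 188062_s_at, read 149 and 100.1 in wild type and 76.4, 92.7 and 95.6 in yap-1(ys38), with all mutant values below. The log2 fold changes were 0.22 (SE 0.22, 95% confidence interval -0.27 to 0.71) and -0.48 (SE 0.35, 95% confidence interval -1.28 to 0.32), and neither passed limma's adjusted test. The difference at the dimmer probe set lay mostly in wild-type array 1, without which the log2 fold change was -0.19. The files do not say which transcripts each probe set detects.

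lag-2, the ligand used in gonad and later embryonic contacts, read 51.0 and 58.3 in wild type and 70.4, 44.6 and 53.3 in yap-1(ys38) (189183_at). Wild type lay inside the range of the mutant. These values stood around the filter intensity of 53.5, so the size of any difference is uncertain, and its log2 fold change of 0.015 had a 95% confidence interval of -0.95 to 0.98.

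lag-1, the factor through which both receptors act, read 2525 and 3215 in wild type and 2910.2, 3760.2 and 2982 in yap-1(ys38) at its brighter probe set, 175617_at. At the other, 192000_s_at, it read 1084 and 974 against 908, 1182 and 1142. The strains overlapped at both. The log2 fold changes were 0.17 (SE 0.19) and 0.059 (SE 0.20), and the narrowest interval of the 9 probe sets, from -0.26 to 0.59, was that of 175617_at.

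Of the target genes, ref-1 read 487 and 486 in wild type and 554, 471 and 439 in yap-1(ys38) (193898_at), the closest strain means of all the members (log2 fold change -0.0022, 95% confidence interval -0.51 to 0.50). The probe set shared by hlh-25 and hlh-27, 184961_s_at, read 122 and 128 in wild type and 162, 183 and 132 in yap-1(ys38), all mutant values above both wild-type ones. Its log2 fold change of 0.33 was the largest upward one (95% confidence interval -0.36 to 1.02), and with wild-type array 2, at 297, included it was -0.082. hlh-26 read 73.0 and 31.99 in wild type and 26.1, 54.5 and 67.7 in yap-1(ys38) (183674_at), a geometric mean of 52.0 over the 6 arrays. It lay under the filter, entered no test and ranged over 2.80-fold within the 5 arrays with the strains interleaved.

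Counted over all 10 probe sets, the yap-1(ys38) arrays lay on one side of both wild-type arrays at 3, namely both of apx-1 and that of hlh-25 and hlh-27, against 10.8% of all probe sets tested. After quantile normalization or median centring the count was 2, with hlh-25 and hlh-27 overlapping, and no share over all probe sets was taken under these settings. With wild-type array 2 included only 188062_s_at of apx-1 stayed apart, against 4.89%. The methods' t-test at the threshold the study names called 1 of the 9, apx-1 at 175612_at, against 1.49% of all probe sets, and 0 after Benjamini-Hochberg adjustment.

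**Figure D2:**
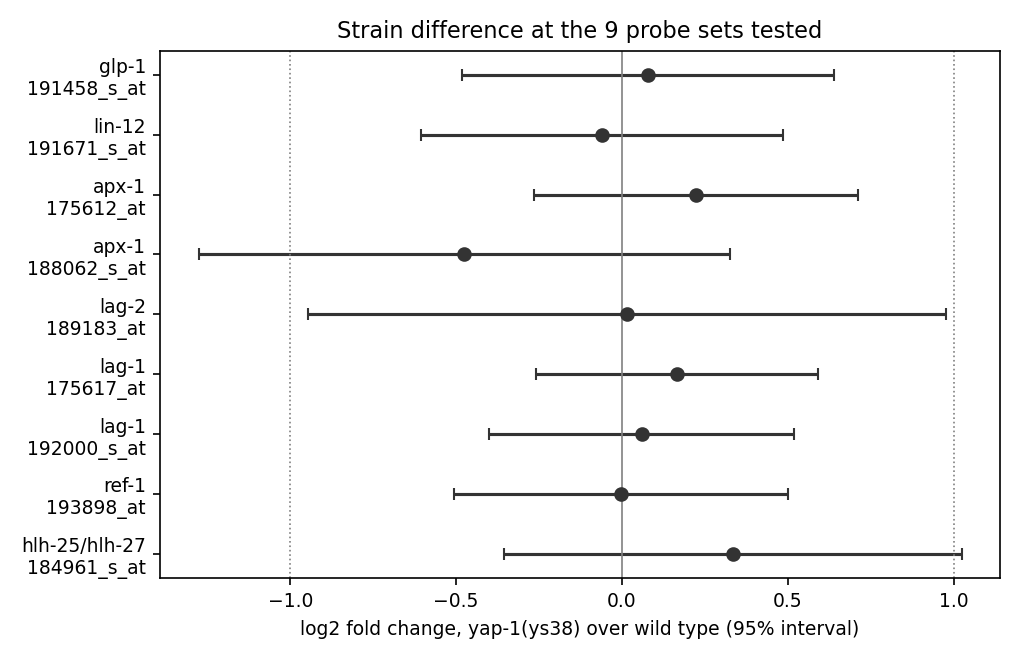
Log2 fold change of yap-1(ys38) over wild type from limma, with 95% confidence intervals, for the 9 probe sets tested; dotted lines mark a 2-fold difference. Every interval covers 0, and those of apx-1 at 188062_s_at and of hlh-25 and hlh-27 pass a dotted line.

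Arrays carry replicate numbers 1 to 3 in both strains, and same-numbered arrays deviated together over all probe sets, so the strain difference was also read within each number. glp-1 and lin-12 followed the same course. In number 1 the mutant read lower than wild type, with log2 differences of -0.48 at glp-1 and -0.53 at lin-12. In number 3 it read higher, with differences of 0.35 and 0.38. In number 2 it read lower, with differences of -0.65 and -0.70, but wild type there was array 2, which the study set aside. That array was the highest of the 6 at both receptors, at 1888 and 1156, against 1203 and 712 in yap-1(ys38) array 2. The lower mutant value in number 2 therefore follows from wild-type array 2. The strain means of these receptors lay close together while the difference changed sign between numbers.

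hlh-26 showed the same order with wider differences, at log2 values of -1.48, -0.70 and 1.08 for numbers 1, 2 and 3. These 3 of the 10 probe sets were lower in numbers 1 and 2 and higher in number 3. Among the 9 tested, which leave out hlh-26, 2 had this order, against 15.4% of all probe sets tested. Numbers 1 and 3 gave opposite signs at 7 of 10 and at 6 of the 9 tested, against 56.2%, a share near the background. With 1 array per strain and number these differences carry no test.

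lag-2 and ref-1 ran the other way in number 1, where yap-1(ys38) read higher by log2 differences of 0.46 and 0.19. They were lower in number 3 (-0.13 and -0.15) and in number 2 (-1.18 and -0.64), where wild-type array 2 was again the highest of the 6. Oocyte and germline markers were a list of 12 genes such as the yolk receptor rme-2 and the eggshell genes cbd-1 and chs-1. In yap-1(ys38) 10 of 12 were lower in numbers 1 and 2 and higher in number 3, against 15.4% of all probe sets tested. Their median log2 differences were -0.14, -1.16 and 0.35. This order, first seen at the receptors, also held at 4 of 5 yolk and adult soma markers, with medians of -1.02, -3.99 and 0.98. It held at 5 of 14 maternal RNA regulators, 1 of 6 sperm markers and 1 of 12 markers of differentiated embryos. Wild-type array 2 was the highest of the 6 at 11 of 12 oocyte and germline markers and at 5 of 5 yolk and adult soma markers. Where it was the highest, a lower mutant value in number 2 was fixed by that array. The summed intensity of the oocyte and germline markers read 5955 and 6281 in wild-type arrays 1 and 3 and 5670.2, 6328 and 7558 in the mutant. The brightest markers, cbd-1 and cgh-1, weigh most in this sum. They read 1405 and 1347 in wild-type array 1 and 2019 and 1934 in yap-1(ys38) array 3. The part of these markers in the course of glp-1 and lin-12 was not tested.

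**Figure D3:**
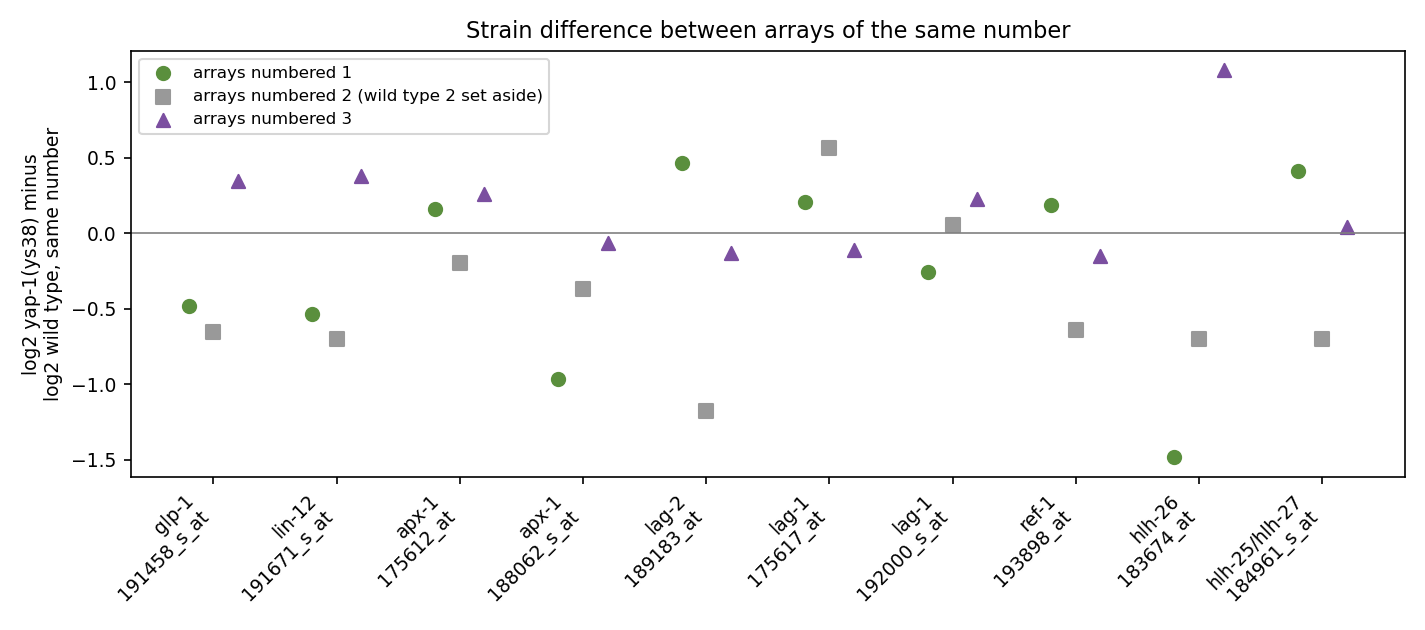
Log2 intensity of yap-1(ys38) minus that of wild type between arrays with the same replicate number, for the 10 probe sets of the members; 1 array per strain stands behind each point. glp-1, lin-12 and hlh-26 lie below 0 for numbers 1 and 2 and above 0 for number 3. Points of number 2 use wild-type array 2, which the study set aside and which was the highest of the 6 at these genes.

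The replicate number itself was compared as number 3 against number 1 over the same 5 arrays with strain as a term. In this fit yap-1(ys38) array 2, the only array of its number, did not enter the difference. limma called 912 of 13529 probe sets (6.74%) and 0 of the 9 of the members, and at an unadjusted p under 0.05 the counts were 19.8% and 0 of 9. The members' log2 differences ran from -0.17 at ref-1 to 0.19 at lag-1 (175617_at). The fit had 1 residual degree of freedom, and with all 6 arrays it called 5 probe sets. A gene that did pass is the presenilin sel-12, the catalytic part of gamma-secretase, which read 1076 and 705 in wild-type arrays 1 and 3 and 1043, 797 and 549 in yap-1(ys38) arrays 1, 2 and 3 (log2 difference -0.77, limma adjusted p = 0.0257). sel-12 was chosen after its values were seen.

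The 45 other genes of the pathway, in 7 lists of ligands, co-ligands, receptor cleavage, the nuclear complex, the REF-1 family, modulators and later targets, gave the same picture. Of them 43 had an annotated probe set and 32 had a tested probe set of their own. limma called 0 of the 32 between strains, against 0% of all probe sets tested, and 0 at an unadjusted p under 0.05, against 1.04%. Of the 32, 18 lay higher and 14 lower, against 51.2% of all probe sets above 0, with a median log2 fold change of 0.020. The strains did not overlap at 3 of the 32, against 10.8%, a share near the background. The 4 other ligands tested, dsl-1, dsl-2, dsl-3 and dsl-6, stood from -0.083 to 0.30. dsl-6 came closest to the test of all ligands, at 1683 and 1621 in wild type against 1918, 2275 and 1920.1 in the mutant (log2 fold change 0.30, SE 0.17). It was 1 of the 3 without overlap.

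The co-ligands osm-11 and osm-7, secreted proteins that carry the DOS motif, stood at -0.25 (SE 0.28) and -0.13 (SE 0.23). Of the 9 receptor cleavage genes, 4 lay higher and 5 lower, and the lowest unadjusted p belonged to the tetraspanins tsp-12 (0.20, SE 0.18) and tsp-14 (0.14, SE 0.18). Of the 13 modulators, 8 lay higher and 5 lower, with sel-9, a p24 family protein, at -0.18 (SE 0.18) and spr-3, a suppressor of presenilin, at -0.18 (SE 0.20). Of the later targets lst-2 gave -0.26 (SE 0.19) at its brightest probe set and 0.48 at its other, and lst-1 gave 0.12 (SE 0.24). sel-8, the worm Mastermind, and the shared probe set of the REF-1 family genes hlh-28 and hlh-29 lay under the filter. The latter read 40.9 and 21.9 in wild type and 33.7, 17.05 and 63.9 in yap-1(ys38).

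**Figure D4:**
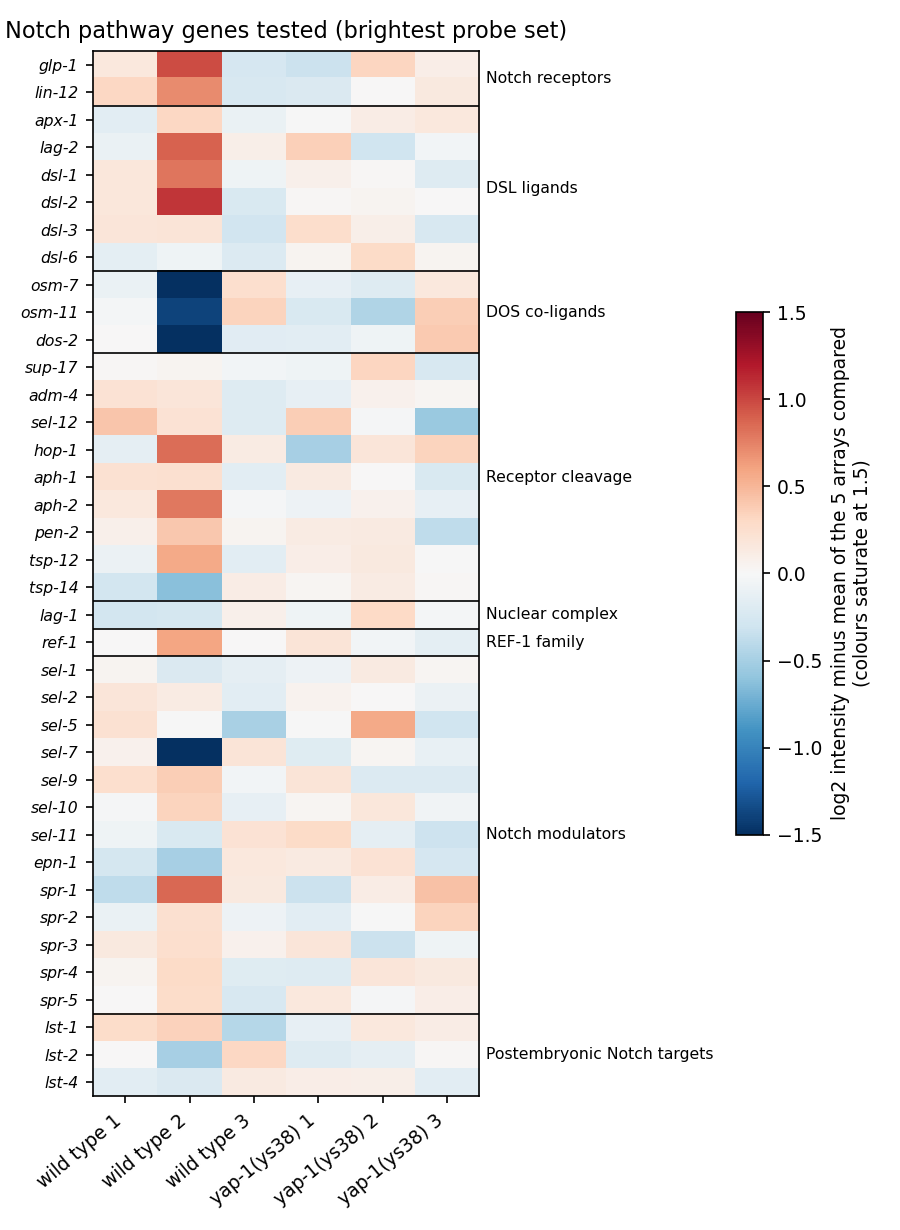
Log2 intensity of each tested Notch pathway gene with a probe set of its own, minus the mean of the 5 arrays compared, in the 6 arrays (colours saturate at 1.5). Wild-type array 2 stands out, red for both receptors, lag-2, dsl-1 and dsl-2 and blue for the co-ligands osm-7, osm-11 and dos-2.

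The largest departure of the members from the other arrays was in wild-type array 2, the one the study set aside. It was the highest of the 6 arrays at 7 of the 10 probe sets and at 6 of the 9 tested, against 32.4% of all probe sets tested. glp-1 read 1888 there, 2.03-fold the geometric mean of wild-type arrays 1 and 3, and lin-12 1156, 1.59-fold. lag-2 read 101 (1.85-fold), apx-1 555 at 175612_at (1.36-fold) and ref-1 734 (1.51-fold). The probe set of hlh-25 and hlh-27 read 297 (2.37-fold) and that of hlh-26 88.3 (1.83-fold).

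The exceptions were lag-1, at 2541 and 1136 (0.892-fold and 1.11-fold), and apx-1 at 188062_s_at, at 119.9 (0.982-fold). The median log2 difference of the 9 tested was 0.59, against 0.0069 over all probe sets. These are values of 1 array with no test. After quantile normalization array 2 was the highest at 8 of 10 and at 7 of the 9 tested, against 36.6% of all probe sets tested. After median centring it was the highest at 9 of 10 and at 8 of the 9 tested, against 57.8%.

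Other pathway lists differed in how they stood in array 2. It was the highest at 4 of 6 ligands (apx-1 and lag-2 among them), 5 of 9 receptor cleavage genes, 6 of 13 modulators, 1 of 3 later targets and 0 of 3 co-ligands. Their median log2 differences from wild-type arrays 1 and 3 were 0.60, 0.21, 0.15, -0.20 and -1.54. After median centring the medians were 1.10, 0.71, 0.65, 0.31 and -1.03, so some depended on the scaling. dsl-1 and dsl-2 were likewise highest in array 2, at 1296 and 3970, against at most 832 and 2130 in the other arrays, whereas the 3 co-ligands tested lay lower there, with osm-7 at 105 against at least 550.4 in every other array. These genes were picked after their values were seen. Array 2 was the highest at 14 of the 32 pathway genes that are not members, against 32.4% of all probe sets tested.

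Several marker lists stood high in the same array. Of 14 maternal RNA regulators, which include known translational regulators of glp-1 such as pos-1, spn-4 and gld-1, 11 were highest there (median log2 difference from wild-type arrays 1 and 3 of 0.75), as were 11 of 12 oocyte and germline markers (1.20, summed intensity 12452 against 5670.2 to 7558 in the other arrays) and 5 of 5 yolk and adult soma markers (summed intensity 12316 against 131 to 7058). Early blastomere fate genes were highest there at 4 of 8 (0.44), sperm markers at 3 of 6 (0.68), and markers of differentiated embryos at 1 of 12 (-0.36, summed intensity 44147 against 62470 to 73146). The cuticle collagen sqt-3, picked after its values were seen, made up most of that sum, at 22401 in array 2 against 37286 to 44319 in the others. Over all probe sets tested, array 2 was the highest at 32.4%. The median of the differentiated embryo markers was -0.33 after quantile normalization and 0.14 after median centring, so its sign depended on the scaling. The medians of the other marker lists stayed above 0 under both, at 0.72 and 1.26 for maternal RNA regulators. No marker list stood at 0 in any array, and all were measured in every one. The 3-prime to 5-prime log2 signal ratio of control transcripts, a measure of RNA integrity, was 3.64 in array 2, second to the 3.74 of wild-type array 3, against 2.68 in wild-type array 1 and 2.86, 3.00 and 3.07 in yap-1(ys38). Wild-type array 3 is 1 of the 2 wild-type arrays in the comparison of strains. The part of these markers and of RNA integrity in the members' levels was not tested.

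**Figure D5:**
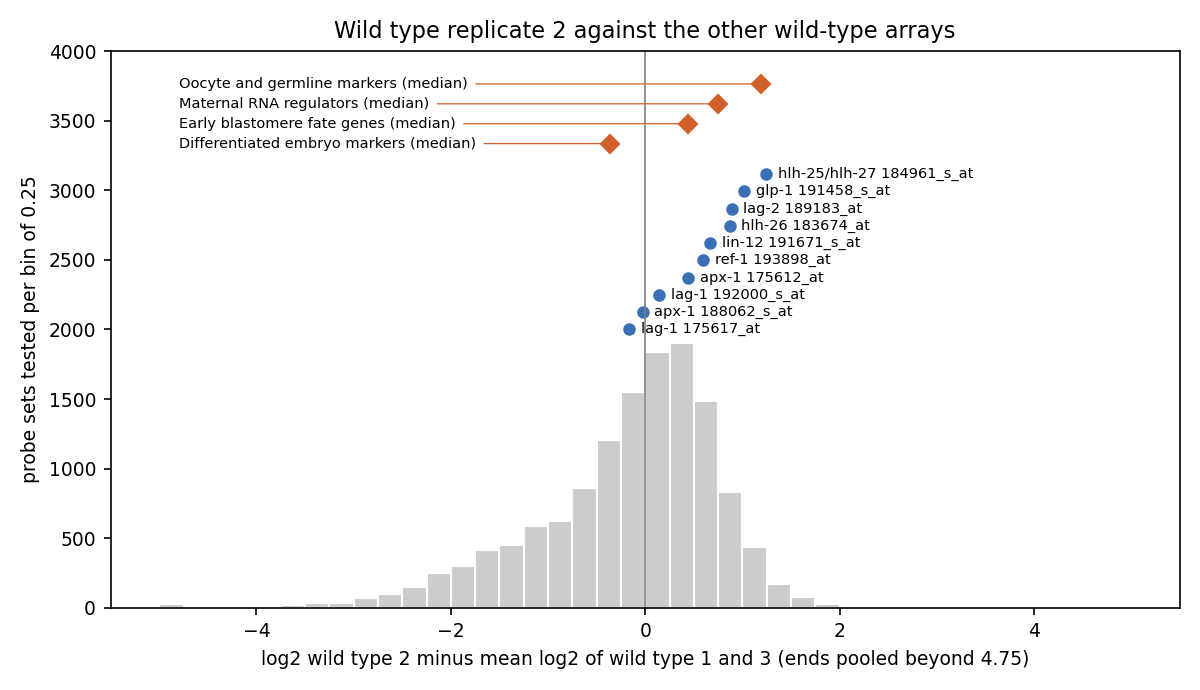
Histogram of the log2 difference between wild-type array 2 and the mean of wild-type arrays 1 and 3 over the 13529 probe sets tested, in bins of 0.25, with the 10 probe sets of the members as blue points and the medians of 4 marker lists as orange diamonds (heights of points and diamonds have no meaning). glp-1 (1.02), lag-2 (0.89), hlh-26 (0.87) and the probe set of hlh-25 and hlh-27 (1.25) lie farthest to the right. The medians of early blastomere fate genes (0.44), maternal RNA regulators (0.75) and oocyte and germline markers (1.20) also lie to the right of 0.

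By the rule of highest Pearson correlation of log2 intensity over the 6 arrays, the genes most like glp-1 among 12883 candidate probe sets were ced-4, the Apaf-1 counterpart of the cell death pathway (r = 0.997), sec-6, an exocyst subunit (r = 0.997), and mut-7, an exonuclease of transposon silencing (r = 0.993). For lin-12 they were taf-12, rpac-40 and cnp-3 (r = 0.996 to 0.991), for lag-2 nhr-102, ard-1 and slc-30A5 (0.999 to 0.994), and for ref-1 Y49F6C.8, tgn-38 and F44B9.5 (0.991 to 0.989). With 6 points, 3 of them paired by number with the others, and 133 probe sets above 0.95 for glp-1 alone, such values are common and are given as a description. Among the members glp-1 and lin-12 correlated at 0.918 over the 6 arrays and 0.748 without wild-type array 2, and lag-2 and ref-1 at 0.935 and 0.732. glp-1 and lag-2 correlated at 0.467 over 6 arrays and at -0.94 without wild-type array 2, where the array with the highest lag-2 had the lowest glp-1.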

How the data were processed

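Deposited values are MAS5 intensities per probe set on a linear scale, scaled globally per array by the authors, per the labels and the series' design text. Detection calls were not used here. The software's version was not given in the sources used here. After trimming 2% at each end the array mean was 500.1 in each, which hides any change in total RNA. Array medians were 86.6 in wild-type array 2 and 118 to 133 in the others, and precision is limited by how many arrays there are. The 77 control probe sets were left out. Values were log2-transformed, and 13529 probe sets above the 40th percentile of mean log2 intensity were fitted with limma 3.58.1 in R 4.3.3 (eBayes with intensity trend, two-sided, Benjamini-Hochberg over all of them, 3 residual degrees of freedom). Fits were tested on simulated data.

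Names came from the platform annotation (20766 with 1 symbol, 887 with several, 895 with none listed), and all 9 members matched the RefSeq table. Pathway genes were represented by the brightest tested probe set with 1 symbol. Members and lists were chosen with earlier results of these data known. Named genes were all members, the 2 genes per pathway list with the lowest p, and the 3 genes most like glp-1, lin-12, lag-2 and ref-1. Other genes named, marker genes among them, stand outside this rule and were chosen with their values known.

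The titles number the replicates without stating a meaning. Within each number the arrays' deviations from their strain means correlated at 0.364, 0.345 and 0.445, and across numbers at 0.015 at most. Deviations within a strain cancel out, so low values across numbers follow in part from those within numbers and are no separate evidence of pairing. The numbers were treated as pairs in the differences read within numbers and in an added blocked fit (1 residual degree of freedom). The main strain fit, from which the fold changes, standard errors and intervals come, left the number out. The study calls the replicates biological, and nothing more says how separate they were. Alternatives changed the arrays, the block, the scaling (quantile or median), the filter, the floor (32) and the variance model, used the methods' t-test, or left out each array.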

Additional observations from a re-analysis of the deposited data

Results flagged for a closer look

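At 7 probe sets wild-type array 2, which entered no main comparison, read above every other array: glp-1 (1888), lin-12 (1156), apx-1 at 175612_at (555), lag-2 (101), ref-1 (734), hlh-26 (88.3) and the probe set of hlh-25 and hlh-27 (297). This holds for 6 of the 9 member probe sets tested and for 32.4% of all probe sets tested.

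At 7 probe sets the strain difference had opposite signs in numbers 1 and 3, with 1 array per strain in each, so the change of sign was not tested. The log2 strain difference in number 3 minus that in number 1 was 0.82 for glp-1, 0.91 for lin-12, 2.56 for hlh-26 and 0.48 for lag-1 at 192000_s_at. It was -0.60 for lag-2, -0.31 for lag-1 at 175617_at and -0.34 for ref-1. Such opposite signs stood at 6 of the 9 member probe sets tested and at 56.2% of all probe sets tested. Groups of 3 arrays are too small for a search for single outlying arrays.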

How the results depend on the processing

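Of the 9 member probe sets tested, limma called 0 between strains or between numbers under every alternative run. The count over all probe sets between strains was 0 except 12 with the replicate block and 0 to 3 on leaving out 1 array (3 without wild type replicate 1). Signs near 0 changed: with all 6 arrays, with or without the replicate block, the log2 fold change was -0.26 for glp-1, -0.28 for lag-2 and -0.082 for hlh-25 and hlh-27, and with the replicate block on 5 arrays -0.066 for glp-1, -0.013 for lag-1 (192000_s_at) and 0.019 for ref-1; lag-2 gave -0.046 after quantile normalization and -0.0073 after median centring. Leaving out each array gave -0.12 to 0.28 for glp-1, -0.34 to 0.21 for lin-12, 0.19 to 0.27 and -0.76 to -0.19 for the apx-1 probe sets, -0.16 to 0.17 for lag-2, -0.0090 to 0.34 and -0.018 to 0.18 for the lag-1 probe sets, -0.097 to 0.071 for ref-1 and 0.23 to 0.46 for hlh-25 and hlh-27. The count of member probe sets with no overlap between strains was 3, against 10.8% of all probe sets tested. With all 6 arrays it was 1, against 4.89%. It was 2 after quantile normalization, 2 after median centring and 3 to 6 on leaving out 1 array (6 without wild type replicate 3, 5 without yap-1(ys38) replicate 1). No share over all probe sets was taken under these last settings, and fewer arrays make overlap rarer by construction, so these counts cannot be called unusual.

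Between numbers 3 and 1 the count of 912 was 5 with all 6 arrays, 520 without the strain term, 477 without a filter, 75 without the intensity trend and 0 to 915 on leaving out 1 of 6 arrays; the cause was not tested. glp-1 gave -0.015 after quantile normalization and -0.042 after median centring. Leaving out 1 of 6 arrays gave -0.45 to 0.46 for glp-1, -0.59 to 0.41 for lin-12, -0.030 to 0.25 and -0.50 to 0.25 for the apx-1 probe sets, -0.66 to 0.46 for lag-2, -0.055 to 0.44 and -0.11 to 0.29 for the lag-1 probe sets, -0.46 to 0.12 for ref-1 and -0.48 to 0.26 for hlh-25 and hlh-27. With the filter at the 60th percentile the dimmer apx-1 probe set, lag-2 and the probe set of hlh-25 and hlh-27 dropped out and gave no value. Low signal limits lag-2 and hlh-26, which read near the filter.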

Other observations

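Of 14 maternal RNA regulators, some of which control translation of glp-1, 2 passed the limma fit of number 3 against number 1, which had 1 residual degree of freedom. They were mex-1 (log2 difference 0.96, adjusted p = 0.00285) and puf-5 (0.79, adjusted p = 0.00877), against 6.74% of all probe sets tested, and 9 of 14 had an unadjusted p under 0.05, against 19.8%. mex-1, a maternal zinc finger protein, read 597 and 1166 in wild-type arrays 1 and 3 and 683, 1435 and 1328 in yap-1(ys38) arrays 1, 2 and 3. puf-5, a PUF family RNA-binding protein of oocytes, read 1199 and 2188 in wild type and 1361, 1974 and 2235 in yap-1(ys38), so that both were lowest in the arrays numbered 1 of either strain. Between strains 0 of the 14 passed, with a median log2 fold change of 0.21 and 13 of 14 above 0, against 51.2% of all probe sets above 0. Within numbers, 6 of 14 were lower in yap-1(ys38) in number 1 and 12 of 14 in number 2, against wild-type array 2. In number 3, 13 of 14 were higher. Number 2 stood only in the mutant among the 5 arrays compared, so strain and number are not fully separated in the count above 0. Of the 5 yolk and adult soma markers 4 passed between numbers, with a median log2 difference of -5.02, and their summed intensity read 7058 and 131 in wild-type arrays 1 and 3 and 4500 in yap-1(ys38) array 1 against 284 in array 3. mex-1 and puf-5 were chosen after their values were seen. All 6 arrays together called 5 probe sets for this contrast, so these calls depend on the arrays in the fit.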
